A study of Mus musculus with 6 samples.

Results

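Apln, Adm, Vegfa, Vegfb, Vegfc, Pgf, Angpt2, Angptl4, Pdgfa and Pdgfb were described as a set of secreted angiogenic factors. The 10 genes were chosen by symbol, with results of the same comparison already known, and all 10 were among the 16081 genes listed in every sample. Transcripts of Lewis cells, an established mouse lung carcinoma line, were measured by RNA-seq to ask which genes differ when the cells are exposed to SD70, a small-molecule inhibitor of the histone demethylase KDM4C. Each of the 2 groups had 3 samples, 1 group kept for 24 hours in the vehicle DMSO and the other for 24 hours in SD70. All 6 samples came from this 1 line, and neither the labels nor the methods give the SD70 dose of this experiment. The study's statistics section says in general that experiments were done at least 3 times independently, but neither it nor the labels say of these samples that they were separate cultures, so the spread between them may be technical. The extraction protocol in the labels speaks of ground tissue, whereas the treatment protocol speaks of Lewis cells.

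Tumor cells secrete such factors, and endothelial cells carry most of the receptors. Apelin (Apln) and adrenomedullin (Adm) are peptides that act on G protein-coupled receptors of the vessel wall. Vegfa, Vegfb, Vegfc and placental growth factor (Pgf) bind the VEGF receptor tyrosine kinases and neuropilins. Vegfa drives the growth of blood vessels and Vegfc that of lymphatic vessels, while Vegfb and Pgf bind the VEGF receptor encoded by Flt1. Angpt2 modulates the receptor Tie2 (Tek), Angptl4 inhibits lipoprotein lipase and acts on vessels, and Pdgfa and Pdgfb act on the PDGF receptors of fibroblasts and mural cells. Several of these genes, Adm, Apln, Vegfa and Angptl4 among them, are textbook targets of the hypoxia-inducible factors.

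The 10 genes lie on 8 chromosomes of the mouse genome (RefSeq annotation of GRCm38.p6), and all are protein coding. Apln (gene ID 30878) spans chrX:48025146-48034853, Adm (11535) chr7:110627657-110629820, Vegfa (22339) chr17:46016993-46032377 and Pgf (18654) chr12:85166637-85177785. Vegfb (22340) spans chr19:6982472-6987651, Vegfc (22341) chr8:54077532-54186454 and Angpt2 (11601) chr8:18690263-18741562. Angptl4 (57875) spans chr17:33774900-33781575, Pdgfa (18590) chr5:138976014-139000792 and Pdgfb (18591) chr15:79995865-80024614.

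Promoter sequences are shown for the 2 peptides and for Vegfa, because the peptides were lower with SD70 and Vegfa was not, although all are known hypoxia targets. They are the 250 bases before the annotated start, taken from RefSeq (GRCm38.p6), all outside the gene, and read 5′ to 3′ on the strand of the gene. Capitals mark ACGTG or GCGTG, the core letters of the hypoxia response element, on either strand, so that GCGTG on the opposite strand appears as CACGC. Apln is shown for chrX:48034854-48035103 (minus strand), Adm for chr7:110627407-110627656 (plus strand) and the first start of Vegfa for chr17:46032378-46032627 (minus strand).
Apln: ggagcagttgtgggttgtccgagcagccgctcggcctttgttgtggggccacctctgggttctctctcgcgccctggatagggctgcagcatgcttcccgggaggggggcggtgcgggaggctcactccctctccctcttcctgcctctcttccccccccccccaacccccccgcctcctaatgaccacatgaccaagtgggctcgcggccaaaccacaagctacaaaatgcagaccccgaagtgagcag
Adm: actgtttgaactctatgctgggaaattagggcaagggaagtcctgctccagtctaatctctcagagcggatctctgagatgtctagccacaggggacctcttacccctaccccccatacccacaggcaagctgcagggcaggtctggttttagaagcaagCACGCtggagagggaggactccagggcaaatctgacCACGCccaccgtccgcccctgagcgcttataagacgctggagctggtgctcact
Vegfa: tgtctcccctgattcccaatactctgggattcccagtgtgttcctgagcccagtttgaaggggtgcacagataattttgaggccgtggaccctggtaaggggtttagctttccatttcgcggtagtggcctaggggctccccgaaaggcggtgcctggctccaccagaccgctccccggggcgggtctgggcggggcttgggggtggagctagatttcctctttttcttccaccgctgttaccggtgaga

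Adm held GCGTG at 2 places, with the first base 90 and 54 bases before the start. Neither core was found in the window of Apln or at the first start of Vegfa, and both were found in the window of a second Vegfa start inside the gene. Of the 2 annotated Pgf starts with a window, 1 held GCGTG 124 bases before it and the other neither core. Both windows lie within the annotated gene span, so only the 29 bases around the match, on the minus strand of chromosome 12, are shown.
Pgf: gccctgcggggtCACGCgcactcaggtct
RefSeq windows from 250 bases before to 50 after the start were found for 7 of the 10 genes, in 10 windows. Angpt2, Angptl4 and Pdgfb had none. Either core was present in 5 of these 10 windows, against 43.8% of all 32851 windows. The 5 windows belonged to 5 genes (Adm, Pgf, Vegfa, Vegfb and Pdgfa), and that of Vegfa was the window of the second start, inside the gene. ACGTG was present in 1 window, the same one inside Vegfa, against 19.6%. The AP-1 letters TGANTCA, present in 7.81% of all windows, and the ATF4 letters TGATGNAA, present in 3.97%, were found in none of the 10 windows. TGANTCA and TGATGNAA do not contain ACGTG or GCGTG, and matches were counted on both strands. Letter matches describe these windows only and are not evidence of binding. GC content was 65.2% in the Apln sequence, 56.8% in Adm and 59.2% in Vegfa, against a median of 52.4% over all windows before a start.

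Both vasoactive peptides were lower with SD70. Values are normalized read counts, that is, the deposited counts divided by TMM-adjusted library size and multiplied by its average. Apln measured 3228, 3085 and 3243 normalized counts with DMSO against 887, 878 and 670 after SD70. The DMSO samples lay close together, SD70 replicate 3 was the lowest, and the groups did not overlap. The group mean was 3185 ± 87.7 for DMSO against 812 ± 123 for SD70 (SD, n = 3 each, as for all means here), so that the SD70 level was 25.5% of the DMSO level, with a log2 fold change of -1.97 (SE 0.077). Of the 11552 genes with enough counts to be fitted, Apln had a log2 fold change that ranked 18 from the lowest. In bulk RNA, fewer cells of a type and less RNA per cell cannot be told apart.

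Adm measured 3332, 2546 and 2803 normalized counts with DMSO and 905, 953 and 696 with SD70. DMSO replicate 1 was the highest and SD70 replicate 3 again the lowest, and the lowest DMSO sample was well above the highest SD70 sample. The means were 2893 ± 401 and 852 ± 137, and the SD70 mean was 29.4% of the DMSO mean. The log2 fold change was -1.76 (SE 0.168), rank 37 from the lowest. In raw counts, Adm gave 3419, 2621 and 2923 reads against 892, 960 and 633, so that counting error was small beside the spread of the samples.

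Among the 4 VEGF family ligands, only Pgf was lower by more than 2-fold. Pgf measured 452, 304 and 370 normalized counts with DMSO and 123, 136 and 91.3 with SD70. DMSO replicate 1 was the highest and SD70 replicate 3 the lowest, with no overlap. The means were 375 ± 74.2 and 117 ± 23.0, or 31.1% of the DMSO mean, with a log2 fold change of -1.68 (SE 0.166) that ranked 46 from the lowest.

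Vegfa, the principal blood vessel growth factor, had the highest normalized count of the set. It measured 4456, 4081 and 4012 with DMSO and 4738, 4551 and 4877 with SD70. All 3 SD70 samples lay above the 3 DMSO samples, but the nearest samples, SD70 replicate 2 and DMSO replicate 1, were close. In FPKM the groups overlapped, with these samples at 88.55 and 89.89. The means were 4183 ± 239 and 4722 ± 163, and the log2 fold change was 0.17 (SE 0.0512), with the SD70 mean at 113% of the DMSO mean.

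Vegfb, a ligand of the Flt1 receptor, measured 911, 810 and 864 normalized counts with DMSO and 759, 857 and 758 with SD70. The groups overlapped, since SD70 replicate 2 lay above DMSO replicate 2. Its log2 fold change was -0.12 (SE 0.0651). Vegfc, the lymphatic ligand, measured 79.9, 63.1 and 74.8 with DMSO and 71.0, 51.6 and 78.1 with SD70, also with overlap. Its log2 fold change of -0.12 (SE 0.169) was smaller than its standard error, and without SD70 replicate 2, its lowest sample, the value was 0.038. Vegfc was the only gene of the set with counts that were not whole, in the deposited estimates.

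The angiopoietin and angiopoietin-like genes had few counts, and only Angptl4 differed between the groups without overlap, in normalized counts and in FPKM. Angpt2, the Tie2 ligand, measured 85.8, 84.5 and 77.7 normalized counts with DMSO and 79.2, 81.4 and 69.3 with SD70. The groups overlapped, and the log2 fold change was -0.11 (SE 0.148). Angptl4, the lipoprotein lipase inhibitor, measured 38.0, 49.5 and 43.2 with DMSO and 69.0, 72.5 and 70.4 with SD70. All 3 SD70 samples lay above the 3 DMSO samples. The means of Angptl4 were 43.6 ± 5.77 and 70.6 ± 1.75, a log2 fold change of 0.70 (SE 0.175) at no more than 73 raw reads per sample.

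Of the PDGF chains, Pdgfa, the ligand of the alpha receptor, measured 302, 300.1 and 277 normalized counts with DMSO and 382, 329 and 358 with SD70. The groups did not overlap, and the means were 293 ± 13.9 and 356 ± 26.5, a log2 fold change of 0.28 (SE 0.084). In FPKM the Pdgfa groups overlapped, with SD70 replicate 2 at 14.64 and DMSO replicate 2 at 14.92. Pdgfb, which binds both PDGF receptors, was near the limit of detection. It gave 7, 16 and 17 raw reads with DMSO and 5 in each SD70 sample, and it was left out of the fit by the filter on low counts. The plot of normalized counts by gene places the 3 genes that were lower beside the others.

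**Figure D1:**
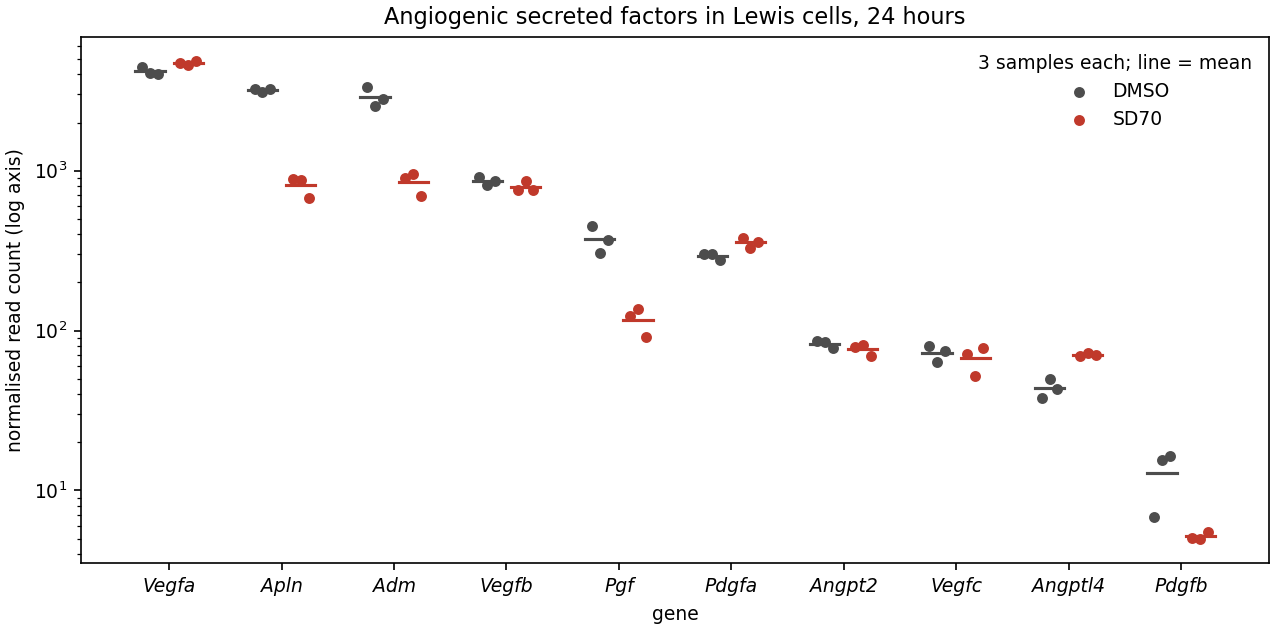
Normalized read counts (log axis) of the 10 genes in the 3 DMSO and 3 SD70 samples, with a point for each sample and a line at each group mean. Apln, Adm and Pgf sit well lower with SD70, with Apln at 812 against 3185, while Vegfa, Pdgfa and Angptl4 sit above their DMSO samples and Vegfb, Vegfc and Angpt2 overlap.

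Across the set, 9 of the 10 genes could be fitted. A gene counted as called when its adjusted p was under 0.01 (edgeR, Benjamini-Hochberg over 11552 genes) and its level differed at least 2-fold, a log2 fold change of 1 or more in size. Since the 10 genes were chosen with this comparison known, their counts are a description and no p-value is given for them. Of the 9, 3 were called lower (Apln, Adm and Pgf), beside 2.61% of all genes tested, and 0 were called higher, beside 3.29%. Without the minimum on the fold change, 3 were lower, beside 24.2% of all genes, and 3 were higher (Vegfa, Pdgfa and Angptl4), beside 25.8%. Whether the 3 higher genes also pass in each alternative fit was not tested. Over 13 alternatives the log2 fold change ran from 0.13 to 0.22 for Vegfa, 0.20 to 0.34 for Pdgfa and 0.44 to 0.79 for Angptl4. In normalized counts the groups did not overlap for 6 of the 9, beside 64.4% of all genes tested. In FPKM they did not overlap for 4 of the 9 (Apln, Adm, Pgf and Angptl4), beside 64.5%. The median log2 fold change was -0.12 over the 9 genes and -0.0043 over all genes tested.

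**Figure D2:**
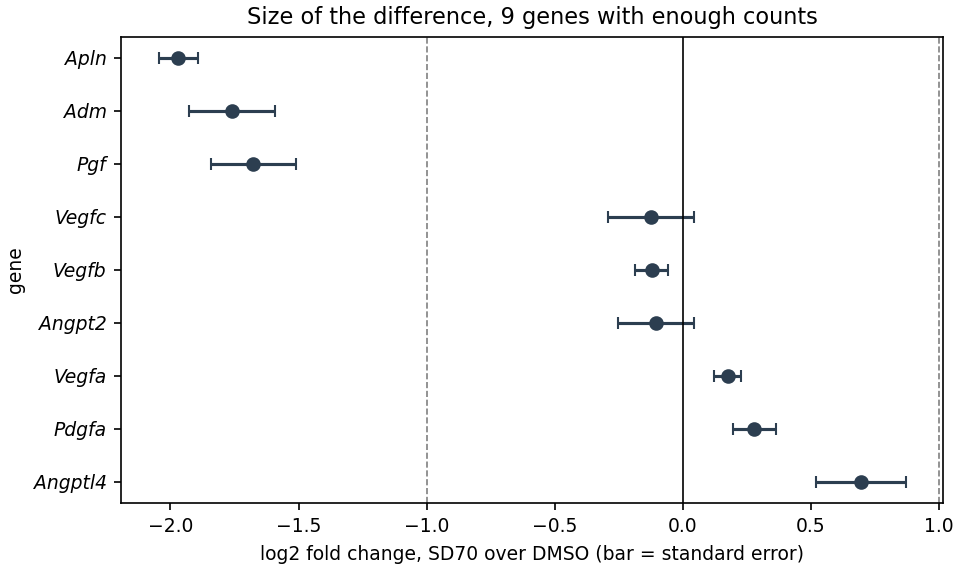
Log2 fold change of SD70 over DMSO with its standard error for the 9 genes that could be fitted, dashed lines marking a 2-fold difference. Apln, Adm and Pgf lie between -1.97 and -1.68, Vegfb, Vegfc and Angpt2 near -0.12, and Angptl4, the highest, at 0.70.

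Levels were set side by side in FPKM, which divides by transcript length and library size. With DMSO, Adm was the highest at 146 ± 20.8 FPKM, followed by Vegfa at 84.3 ± 4.98, Apln at 65.4 ± 1.59 and Vegfb at 48.8 ± 2.96. Pgf (16.003 ± 3.30) and Pdgfa (14.3 ± 0.845) overlapped in range and were not told apart. Vegfc (2.59 ± 0.304) stood above Angptl4 (1.54 ± 0.201) and Angpt2 (1.49 ± 0.087), which overlapped, and Pdgfb was the lowest at 0.303 ± 0.155.

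With SD70, Vegfa led the order at 92.0 ± 3.29 FPKM. Vegfb (44.2 ± 2.89) and Adm (42.2 ± 6.58) came next with overlapping ranges, and Pdgfa (16.6 ± 1.73) and Apln (16.3 ± 2.44) overlapped as well. Pgf followed at 5.08 ± 1.02. Angptl4 (2.44 ± 0.06) and Vegfc (2.34 ± 0.485) overlapped, and Angpt2 (1.35 ± 0.115) and Pdgfb (0.113 ± 0.04) closed the list. Adm thus stood above Vegfa in every DMSO sample and below it in every SD70 sample.

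Summed over the 10 genes, the FPKM values came to 417, 355 and 370 with DMSO and to 227, 227 and 214 with SD70. The SD70 samples were lower throughout, at 223 ± 7.53 against 381 ± 32.6. Adm made up 38.2 ± 2.12% of the sum with DMSO against 18.9 ± 2.37% with SD70, and that of Apln 17.2 ± 1.16% and 7.30 ± 0.868%. The share of Vegfa was 22.2 ± 0.951% with DMSO against 41.4 ± 2.80% with SD70 beside FPKM means of 84.3 and 92.0. The share of Vegfb was 12.8 ± 0.352% and 19.8 ± 1.12% beside FPKM means of 48.8 and 44.2, and that of Pdgfa 3.77 ± 0.382% and 7.49 ± 0.917% beside 14.3 and 16.6.

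**Figure D3:**
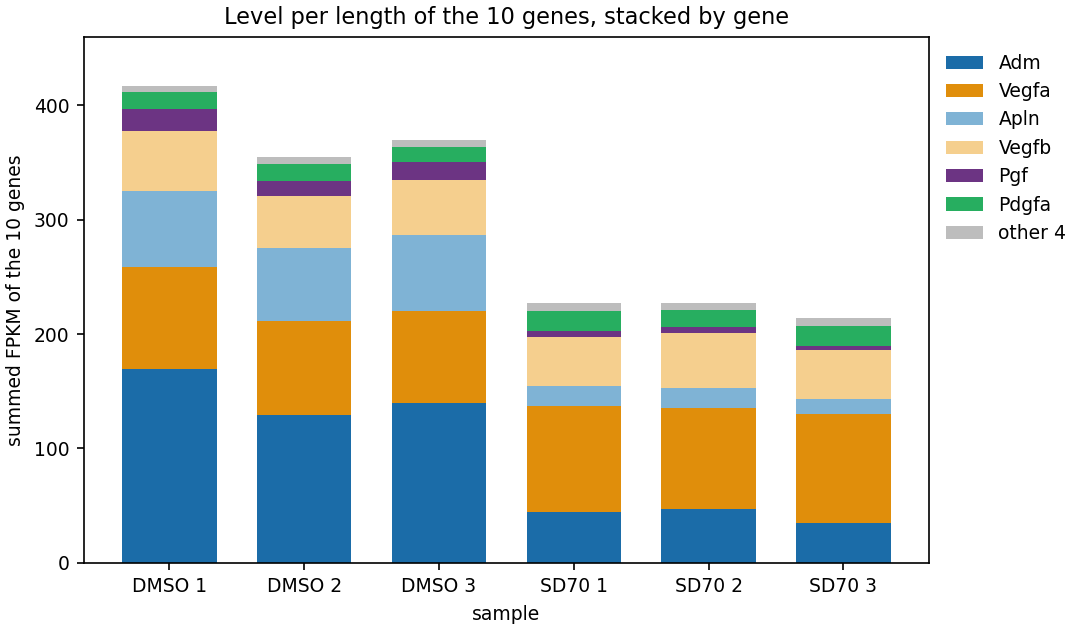
FPKM of the 10 genes stacked for each sample, with the 4 least abundant genes pooled. The bars are lower in the 3 SD70 samples, at 214 to 227 against 355 to 417, and the Vegfa segment keeps a similar height while the Adm, Apln and Pgf segments are smaller.

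The 3 genes that were lower with SD70 shared their lowest sample within each group, and Vegfb, whose groups overlapped, had the same lowest samples. Deviations from the group mean of log2 normalized counts were 0.02, -0.05 and 0.03 for Apln in DMSO replicates 1, 2 and 3, and 0.14, 0.13 and -0.27 in the SD70 replicates. For Adm they were 0.21, -0.18 and -0.04 with DMSO, against 0.10, 0.18 and -0.28 with SD70. For Pgf they were 0.29, -0.29 and -0.002 with DMSO, against 0.09, 0.24 and -0.33 with SD70. DMSO replicate 2 was thus the lowest DMSO sample for all 3 genes and SD70 replicate 3 the lowest SD70 sample. Vegfa deviated by 0.09, -0.03 and -0.06 with DMSO and by 0.01, -0.05 and 0.05 with SD70, and was not lowest in SD70 replicate 3. Angpt2 and Vegfb, whose groups overlapped, were also lowest in SD70 replicate 3, with deviations of 0.05, 0.09 and -0.14 for Angpt2 and of -0.058, 0.117 and -0.060 for Vegfb over the SD70 replicates. With DMSO, Vegfb deviated by 0.082, -0.088 and 0.006 and Vegfc by 0.143, -0.192 and 0.049, so that both were lowest in DMSO replicate 2. These lowest samples were thus not particular to the 3 lower genes. The mean of 16 hypoxia response genes that passed the test as lower, a selection made on these samples, deviated by 0.07, -0.08 and 0.002 with DMSO and by 0.04, 0.06 and -0.10 with SD70. SD70 replicate 3 was also the shallowest library, with 15276744 counts, and its part in these values was not tested. Without it, the log2 fold change was -1.86 for Apln, -1.64 for Adm and -1.54 for Pgf.

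**Figure D4:**
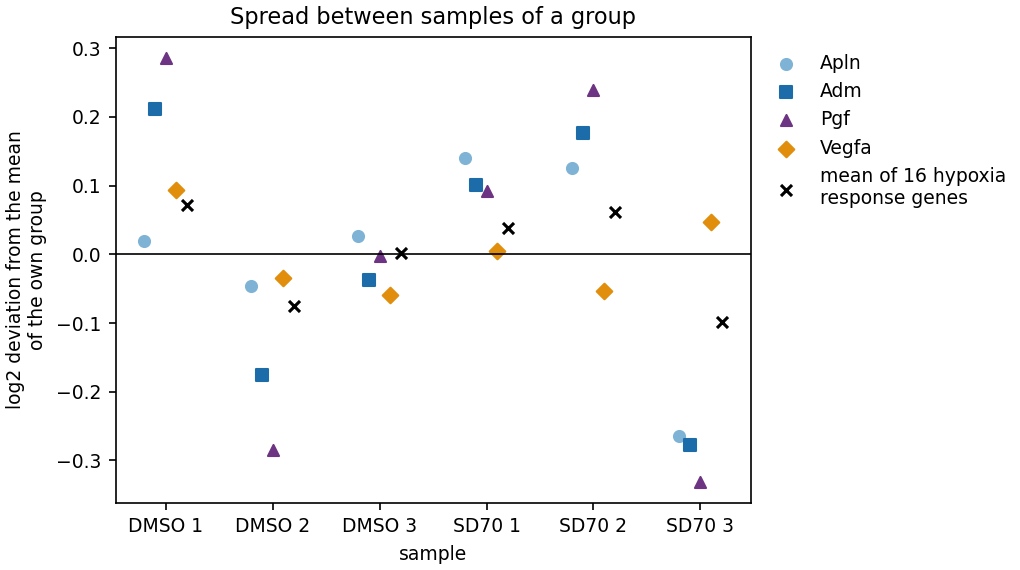
Deviation of each sample from the mean of its own group (log2 normalized counts) for Apln, Adm, Pgf, Vegfa and the mean of 16 hypoxia response genes. SD70 replicate 3 is low for Apln (-0.27), Adm (-0.28) and Pgf (-0.33) and not for Vegfa (0.05).

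The genes with the most similar profile were found by the Euclidean distance of log2 normalized counts, centered on the DMSO mean, over the 6 samples. The search covered only the 9622 other genes whose normalized counts averaged at least 100. Nearest to Apln were Fgf11 (distance 0.286), Bmf (0.327) and Fam71f2 (0.407). Nearest to Adm was Pgf (0.223), itself one of the 10 genes, then Selenbp1 (0.244) and Id2 (0.275). Nearest to Vegfa were Jkamp (0.0407), Arl5b (0.0463) and Usp6nl (0.0469), with differences of similar size, such as a log2 fold change of 0.18 for Jkamp. These genes were picked for likeness over the same samples, and nothing is read from their functions.

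The receptors of the 10 factors mostly had few or no reads in these cells. Of 14 receptors and co-receptors, all listed, 8 had at most 6 reads in any sample and were not tested. They included the apelin receptor Aplnr, with 1 read in 1 DMSO sample and 0 in the other 5, and the main VEGF receptor Kdr, with at most 2 reads. Flt4, the receptor of Vegfc, had at most 3 reads, Tek at most 4, Tie1 at most 6, and Nrp1, Ramp1 and Ramp3 at most 2.

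The 6 receptors that could be tested included the adrenomedullin receptor Calcrl, which rose from 647 ± 49.0 to 1872 ± 134 normalized counts (log2 fold change 1.53, SE 0.0639, adjusted p = 1.52e-20, quasi-likelihood test of edgeR, Benjamini-Hochberg adjusted, as for all adjusted p-values here). Its partner Ramp2 measured 29.1 ± 4.10 and 40.4 ± 5.41 and did not pass (0.47, adjusted p = 0.0617). The receptor Calcrl thus rose where its ligand Adm was lower. Pdgfrb, the beta receptor of Pdgfb, rose from 552 ± 8.82 to 1606 ± 190 (log2 fold change 1.54, adjusted p = 2.09e-17). Pdgfra, the alpha receptor, fell from 1753 ± 50.8 to 877 ± 44.6 (adjusted p = 9.33e-17), just short of a 2-fold difference at -0.999. The co-receptor Nrp2 was the most abundant of them and rose slightly, from 11868 ± 806 to 13442 ± 445 (0.18, adjusted p = 0.00288). Nrp2 did not pass in 6 of 13 alternatives, with an adjusted p of 0.0488 without DMSO replicate 2, 0.0477 without DMSO replicate 3, 0.0138 without SD70 replicate 1 and 0.0105 without SD70 replicate 3, and 0.0232 and 0.0219 with limma on log2(FPKM + 1) and log2(FPKM + 0.1). Flt1, which binds Vegfa, Vegfb and Pgf, measured 23.6 ± 8.19 and 33.6 ± 5.41 and did not pass (0.50, adjusted p = 0.0849). Of the 6, 2 were called higher and 0 lower, beside 3.29% and 2.61% of all genes tested, with a median log2 fold change of 0.49 against -0.0043 over all genes. Pdgfra was called lower in 8 of 13 alternatives, DESeq2 among them, which makes 1 lower there, and its log2 fold change was -0.957 to -1.04 over all 13. At an adjusted p under 0.01 alone, 3 of the 6, Nrp2 included, were higher and 1 lower, beside 25.8% and 24.2%.

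Of 15 other ligands of the same families, 11 were listed and 6 tested, of which 1 was called higher and 0 lower, beside 3.29% and 2.61% of all genes tested (median -0.11). Angptl6, an angiopoietin-like gene, rose from 63.3 ± 8.74 to 128 ± 13.1 normalized counts (1.02, adjusted p = 2.7e-07). Its log2 fold change was under 1 without DMSO replicate 2 (0.93), DMSO replicate 3 (0.98) or SD70 replicate 3 (0.94) and with limma on log2(FPKM + 1) (0.78) and log2(FPKM + 0.1) (0.96), that is, Angptl6 was not called in 5 of 13 alternatives. Its counts were not whole. Angpt1, the activating Tie2 ligand, rose from 72.6 ± 14.5 to 145 ± 3.77 (adjusted p = 1.91e-07) and at 0.997 was just short of 2-fold, with values of 1.14 without DMSO replicate 2 and 1.01 without SD70 replicate 3. Angptl2 fell from 2709 ± 87.2 to 1997 ± 56.0 (-0.44, adjusted p = 4.24e-09). Pdgfc measured 30.3 ± 8.98 and 19.2 ± 5.00 (-0.65, adjusted p = 0.0394).

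Among genes that process or release the factors, both plasminogen activators were lower by more than 2-fold. Of 13 genes named, 11 were listed and 9 tested, of which 2 were called lower and 0 higher, beside 2.61% and 3.29% of all genes tested (median -0.30). At an adjusted p under 0.01 alone, 6 were lower and 0 higher, beside 24.2% and 25.8%. The plasminogen activators Plau and Plat fell, Plau from 3237 ± 274 to 1237 ± 88.6 (-1.39, adjusted p = 3.1e-18) and Plat from 799 ± 78.8 to 329 ± 28.03 (-1.28, adjusted p = 1.55e-15). Furin, a convertase that cleaves growth factor precursors, fell from 1041 ± 12.9 to 840 ± 74.8 (-0.31, adjusted p = 7.05e-05). Hpse, the heparanase, fell from 746 ± 25.7 to 606 ± 56.7 (-0.30, adjusted p = 0.000356).

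Of 18 other secreted angiogenic factors named, 13 were listed and 9 tested, with 1 called lower and 0 higher, beside 2.61% and 3.29% of all genes tested (median -0.10). At an adjusted p under 0.01 alone, 4 were lower and 3 higher, beside 24.2% and 25.8%. The matricellular gene Cyr61 fell from 506 ± 60.3 to 257 ± 10.9 (-0.97, adjusted p = 8.66e-12), a value that was past -1 without DMSO replicate 2 (-1.05), DMSO replicate 3 (-1.02) or SD70 replicate 2 (-1.003). Ecm1 fell (-0.67, adjusted p = 9.88e-06), while Spp1, the most abundant of the list, did not pass (-0.10, adjusted p = 0.0776). The galectin Lgals3 fell slightly (-0.16, adjusted p = 0.00643) and did not pass without DMSO replicate 2 (0.0162), DMSO replicate 3 (0.0592), SD70 replicate 1 (0.0232) or SD70 replicate 2 (0.0122). The gene called was Tgfa, an EGF receptor ligand named here after its values were seen, which fell from 77.9 ± 21.4 to 33.2 ± 5.18 (-1.23, adjusted p = 3.86e-06) and measured -0.99 without DMSO replicate 1 and -0.52 with limma on log2(FPKM + 1). The 3 that rose, also named after their values were seen, were Fgf1, from 33.9 ± 1.61 to 66.1 ± 4.23 (0.96, adjusted p = 3.27e-05), the hepatocyte growth factor Hgf, from 33.3 ± 5.21 to 57.6 ± 10.9 (0.80, adjusted p = 0.00099), and pleiotrophin, Ptn, from 47.7 ± 3.65 to 73.2 ± 11.3 (0.61, adjusted p = 0.00295). Fgf1 reached 2-fold without SD70 replicate 3 (1.002). Without SD70 replicate 1, neither Hgf (adjusted p = 0.0183) nor Ptn (0.0309) passed, and Ptn did not pass without DMSO replicate 2 (0.0164) or with DESeq2 (0.0163).

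Of 16 secreted angiogenesis inhibitors, all listed, 13 were tested, with 1 called higher and 1 lower, beside 3.29% and 2.61% of all genes tested (median 0.06). At an adjusted p under 0.01 alone, 5 were higher and 2 lower, beside 25.8% and 24.2%. Sema3a rose from 972 ± 27.04 to 1553 ± 47.2 (0.68, adjusted p = 1.37e-12), Serpinf1, which encodes PEDF, from 4493 ± 112 to 6307 ± 138 (0.49, adjusted p = 1.11e-10), Thbs2 from 8023 ± 224 to 10022 ± 375 (0.32, adjusted p = 7.23e-07) and Adamts1 from 738 ± 35.8 to 923 ± 74.6 (0.32, adjusted p = 7.69e-05). The genes called were Cxcl10, the chemokine, at 3.01 (adjusted p = 1.9e-16) and Vash1, at -1.02 (adjusted p = 0.00367), both named after their values were seen. The other inhibitor that was lower was Timp2, also named after its values were seen. It fell from 3407 ± 84.5 to 2821 ± 58.6 (-0.27, adjusted p = 1.33e-05) and was not followed over the alternatives. Vash1 had at most 35 reads and was not called without DMSO replicate 3 (-0.83, adjusted p = 0.0356), SD70 replicate 1 (-0.92, adjusted p = 0.0271) or SD70 replicate 2 (-0.85, adjusted p = 0.0321). Nor was it called with DESeq2 (adjusted p = 0.0248) or with limma on log2(FPKM + 1) (-0.16, adjusted p = 0.0816) and log2(FPKM + 0.1) (-0.63, adjusted p = 0.0406), which makes 6 of 13 alternatives.

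Hypoxia response genes were examined because several of the 10 factors are known targets of the same transcription factors. Of 23 genes, all listed, 22 were tested, with 5 called lower and 0 higher, beside 2.61% and 3.29% of all genes tested. At an adjusted p under 0.01 alone, 16 were lower and 2 higher, beside 24.2% and 25.8%, with a median log2 fold change of -0.59. Ankrd37 fell from 203 ± 22.7 to 70.4 ± 3.79 normalized counts (-1.52, adjusted p = 2.16e-12), and Car9, a carbonic anhydrase, from 195 ± 16.9 to 72.5 ± 17.2 (-1.42, adjusted p = 7.34e-11). Bnip3, a mitophagy receptor, fell from 6890 ± 153 to 3048 ± 404 (-1.18, adjusted p = 4.58e-10), and the prolyl hydroxylase Egln3 from 6716 ± 508 to 3043 ± 372 (-1.14, adjusted p = 1.75e-07). The fifth gene called, Egln1, named after its values were seen, fell from 5506 ± 458 to 2696 ± 161 (-1.03, adjusted p = 6.31e-16) and measured -0.97 without DMSO replicate 1 and -0.99 without SD70 replicate 3. Hif1a, which encodes the oxygen-regulated subunit of the factor and was also named after its values were seen, rose from 10657 ± 35.3 to 19572 ± 705 (0.88, adjusted p = 2.27e-17). The other gene that rose was Ddit4, a stress-induced inhibitor of mTORC1 likewise named after its values were seen, from 770.3 ± 59.8 to 1169 ± 54.7 (0.60, adjusted p = 4.03e-10). Apln, Adm and Pgf, at -1.97 to -1.68, were lower than the lowest of the 22 genes, whereas Vegfa, at 0.17, was not lower.

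**Figure D5:**
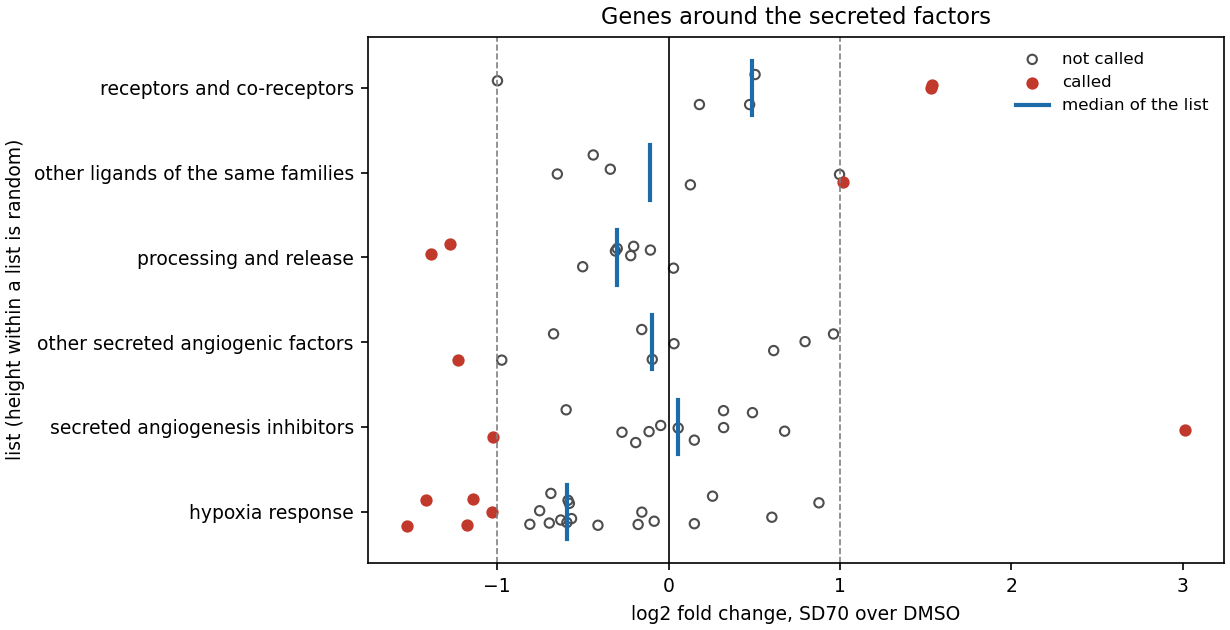
Log2 fold change of the tested genes of 6 related lists, called genes filled, with a bar at the median of each list and dashed lines at a 2-fold difference. The hypoxia response list has the lowest median, at -0.59, and the receptors the highest, at 0.49, with Cxcl10 at 3.01 among the inhibitors.

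The 6 libraries held 15276744 to 17060424 counts, and TMM factors ran from 0.984 to 1.016. Endothelial cells, which express many of the receptors above, were marked by 5 listed genes of 7, with Pecam1, Vwf and Tek at no more than 4 reads, Cdh5 at 56 to 65 and Esam at 6 to 21. Esam measured lower with SD70 without overlap in normalized counts (-0.84) but did not pass (adjusted p = 0.0395), and Cdh5 overlapped (0.14, adjusted p = 0.503). Leukocyte markers Ptprc, Csf1r, Fcer1g and Coro1a had at most 4 reads. Cd68 had 155 to 253 reads and fell (log2 fold change -0.48, adjusted p = 0.000121), while Lyz2 had 11 to 26 and, without overlap in normalized counts, measured higher (0.79) but did not pass (adjusted p = 0.0256). The part of these markers in the values above was not tested. Of lung epithelial markers, Sftpc had at most 1 read and Napsa 65 to 85, and Epcam, Cdh1 and Krt19 had at most 1. The keratins Krt8, with 2382 to 4150 reads, and Krt18, with 31 to 101, fell (-0.55, adjusted p = 3.28e-11, and -1.22, adjusted p = 2.97e-07). Of mesenchymal markers, Vim, with 44823 to 73431 reads, and Fn1, with 7758 to 11279, fell (-0.47, adjusted p = 6.69e-10, and -0.23, adjusted p = 0.00767), while Cdh2 had at most 1 read and Col1a1 at most 6. Epcam and Cdh1, defining surface markers of epithelium, were thus at or near 0 in cells that the labels call lung adenocarcinoma cells, while Krt8, Krt18 and Napsa were detected. The epithelial and mesenchymal lists were both mixed, and the type of the cells was not tested.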

How the data were processed

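Lewis cells were profiled by RNA-seq in 6 samples, 3 with DMSO and 3 with SD70, grouped by the sample labels. Per the study's methods, the authors sequenced on BGISEQ-500 and aligned to GRCm38.p6 with HISAT. The submitters' processing notes also list StringTie 1.3.3b and the build mm8 with no role. The counting tool and annotation are not given in the sources used here. The authors deposited an expected count per gene and sample, not normalized and not always whole (8.84% to 9.28% of values were not whole). The authors also deposited a value that behaves as FPKM, normalized for length and library size. No label names that unit, which was taken from the ratio of counts to values. Coordinates and promoter sequences come from RefSeq GRCm38.p6. No coordinates from the files were used.

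Counts were rounded, filtered by filterByExpr, normalized by TMM and tested in edgeR 4.0.16 (R 4.3.3) by the quasi-likelihood functions glmQLFit, with its robust option, and glmQLFTest, with Benjamini-Hochberg adjustment over 11552 genes, leaving 4529 untested. The standard error comes from the F statistic. Precision is limited by 3 samples a group. Within groups, no pair of samples agreed within sampling noise (chi-square per gene 2.12 to 4.97). On simulated data with 200 genes changed by a log2 fold change of 2, edgeR called all 200 and 0 others among 11528. Every simulated gene had the same small spread, smaller than that of Adm or Pgf here, and the change was well past the 2-fold minimum. The simulation therefore checks that the fit runs properly and does not measure how reliable the calls are in these samples.

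The members and lists were chosen with earlier results of these data known. The named genes are all 10 factors, every listed receptor, at most 4 genes of each other list by absolute log2 fold change among those whose normalized counts average at least 100 (of all tested genes where fewer than 4 reached it), and the 3 nearest genes of Apln, Adm and Vegfa. Tgfa, Fgf1, Hgf, Ptn, Cxcl10, Vash1, Timp2, Egln1, Hif1a, Ddit4 and the cell type markers fall outside this rule, and all of these genes but the markers were named after their values were seen. Alternatives were DESeq2 size factors, other count filters, a block for the replicate number, each sample left out in turn, DESeq2 1.42.0, limma 3.58.1 on log2(FPKM + 1) and log2(FPKM + 0.1), and other call thresholds.

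Both groups carry replicate numbers 1 to 3, and no source says that the same number marks a shared culture or day. Deviations from the group mean were correlated between samples of the same number. The first setting tried (Pearson, genes with a mean of at least 100) gave 0.181, 0.283 and 0.172, all over 0.1. In 5 further settings, tried after that result and with the block's counts already in view, at least 1 pair was under 0.1, with values from -0.105 upward. The block is therefore given as an alternative, with the pairing unsettled.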

Additional observations from a re-analysis of the deposited data

How the results depend on the processing

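The limits are 3 samples a group, 1 cell line, 1 time point and few counts for Angpt2, Angptl4, Vegfc and Pdgfb. The number of genes called was 681 in the test reported, 283 by limma on log2(FPKM + 1) and 5767 with no minimum on the fold change. That last setting also gave 6 of the set and 45 of the related genes, against 3 and 13. Leaving out 1 sample gave 621 to 721 genes, 3 to 4 of the set and 11 to 15 related genes. The fourth of the set was Pdgfb, which was tested and called without DMSO replicate 1. With a replicate block, 692 genes, 3 of the set and 14 related genes were called, the added gene being Angpt1 at the fold minimum, and this pairing rests on a correlation that only 1 of 6 settings of the check bears out. Apln ran from -2.04 to -1.86, Adm from -1.86 to -1.64, Pgf from -1.82 to -1.48, Vegfa from 0.13 to 0.22 and Angptl4 from 0.44 to 0.79 over 13 alternatives, with Angptl4 lowest on log2(FPKM + 1), where a pseudocount understates low genes. Vegfc was the only one of the 9 genes to change sign. By median FPKM, 8 of 10 genes kept their rank with DMSO and 4 of 10 with SD70. In the 250 bases before the start alone, either hypoxia core was in 5 of the 10 windows and in 38.6% of all windows.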
